A study of Mus musculus with 6 samples.

Results

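The 6 genes described here make, carry and use itaconate and arginine: Acod1, Slc13a3, Slc7a2, Nos2, Ass1 and Odc1. They were chosen by symbol from the 17469 genes of the deposited count table, and all 6 were among the 12701 genes with enough counts to be tested. They were picked with their values in these libraries known, so their levels and differences are given as a description, and their calls are counted only to stand beside those of all genes.

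Itaconate is a dicarboxylate that macrophages make in their mitochondria when bacterial products or interferons activate them. Acod1 (also called Irg1) forms it from cis-aconitate, an intermediate of the tricarboxylic acid (TCA) cycle, and itaconate slows succinate dehydrogenase and can release the antioxidant regulator NRF2 from its repressor KEAP1. Arginine, taken up by cationic amino acid carriers such as Slc7a2, is a substrate that several enzymes share: the inducible nitric oxide synthase Nos2 turns it into nitric oxide and citrulline, while a competing route turns it into urea and ornithine. Citrulline is rebuilt into arginine through Ass1, and ornithine enters polyamine synthesis through Odc1. In mouse macrophages Nos2 is a classic marker of stimulation by bacterial products and interferon-gamma.

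RNA-seq was performed on tdTomato+ cells sorted from bone marrow stromal cell (BMSC) cultures, the adherent cells grown out of flushed long-bone marrow, of untreated 6-month-old mice. The control group was Ocn-Cre;Ai9 and the other group TgAPPswe;Ocn-Cre;Ai9, with 3 libraries each. Both groups carry Cre under the osteocalcin promoter and the Ai9 allele, in which Cre switches on tdTomato for good, so a cell is marked whether it or an ancestor had Cre activity. TgAPPswe adds human APP with the Swedish mutation, with its mRNA under the CAG promoter and, per the study's methods, its protein made only once Cre has taken out a stop cassette. The control genotype lacks it. The study gives its values from these cells per mouse, but the sources used here do not tie each library to its own mouse, so the p-values below measure the spread between these libraries, which may be technical.

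The libraries held 19340810 to 22037840 estimated counts, and 3 counts, the level taken as the floor of detection, corresponded to 0.136 to 0.155 CPM (counts scaled to the library total), which covers counting error only. Levels are given as FPKM (mapped fragments scaled to transcript length and to library depth), which can be compared between genes. Differences are log2 fold changes of normalized counts, TgAPPswe minus control, with the standard error (SE) of the edgeR quasi-likelihood fit. A gene was called when its Benjamini-Hochberg adjusted p was at most 0.05 and its log2 fold change at least 1 in either direction. The sorted cells were labelled as osteoblast-lineage cells. Myeloid markers were abundant in them, with 15 listed genes summing to 19559 to 20311 FPKM in control and 16352 to 20099 FPKM in TgAPPswe libraries, and no gene of the list at 0 in any library. Lyz2 alone gave 9057 and 6977 FPKM of this on average. Within the list 4 genes rose and 4 fell, or 53.3% of those tested against 18.1% of all tested genes. On the log2 scale Adgre1 differed by 1.89, Aif1 by 2.04, Itgam by 1.26 and Fcer1g by 1.11. Csf1r differed by -1.49, Cd68 by -1.26, Cx3cr1 by -2.05 and Mrc1 by -2.38. The 15 stromal and osteoblast-lineage markers summed to 1029 to 1137 and to 582 to 851 FPKM, of which Spp1, also made by macrophages, gave the most (944 and 561 FPKM on average). Without Spp1 the other 14 summed to 136.7 to 159 FPKM in control and 101 to 179.8 FPKM in TgAPPswe libraries, which overlap. Of the list 2 genes rose, Dcn from 0.447 to 5.97 FPKM and Lum from 0.01 to 0.767 FPKM, and none fell past the threshold in edgeR. The defining osteoblast genes were low: Bglap, which encodes osteocalcin itself, averaged 0.857 FPKM in control and 0.273 FPKM in TgAPPswe libraries, and Sp7 1.36 and 0.687 FPKM. Counts of Bglap were fractional in 4 of 6 libraries, so its values are uncertain. The same holds, with fractional counts in all 6 libraries, for Lyz2, Itgax and Xcr1 and, further on, for Slc7a11, Sms, Trp53rka, Raver2 and Bcl2a1a. Among markers of other blood cells, 1 of 8 tested neutrophil genes (Camp) and 2 of 4 dendritic cell genes (Xcr1 and Batf3) rose and none of either list fell past the threshold in edgeR. The most abundant dendritic cell marker, Itgax, was at 28.7 and 12.6 FPKM and not called. With it the summed dendritic cell markers overlapped between groups, at 18.8 to 42.95 and 18.5 to 30.2 FPKM. Without Itgax the other 7 summed to 2.05 to 3.03 FPKM in control and 9.92 to 12.4 FPKM in TgAPPswe libraries, which do not overlap. Most of this was Batf3, at 1.96 and 10.1 FPKM on average. Of 2 tested lymphoid and 3 erythroid and megakaryocyte genes, 1 each fell (Cd4 and Pf4) and none rose. Both falls were those of a single gene. Without Cd4 the lymphoid markers summed to 0.51 to 0.64 FPKM in control and 0.48 to 0.63 FPKM in TgAPPswe libraries. Pf4 was at 565 and 184 FPKM on average, and without it the other markers of its list summed to 2.16 to 2.86 and 0.89 to 2.17 FPKM. In such bulk RNA, fewer cells of a type and less RNA per cell cannot be told apart, and the part of the myeloid cells in the results below was not tested. The mouse App gene was at 279 FPKM in control and 330 FPKM in TgAPPswe libraries (log2 fold change 0.45, SE 0.0509, edgeR adjusted p = 7.87e-05).

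Slc13a3 and Acod1, the itaconate genes, were the members with the largest differences, and their start regions are shown for that reason. Each line gives 215 bases that end 36 bases before the RefSeq transcription start (build GRCm38.p6), written 5′ to 3′ along the gene's strand, with capitals marking the matches to the motifs listed after them. The Acod1 window lies at chr14:103046762-103046976 on the plus strand and the Slc13a3 window at chr2:165473233-165473447 on the minus strand. The gene bounds given further on are those of GENCODE, which begin upstream of the RefSeq start and just past each window, so all distances in the windows are from the RefSeq start.
Acod1: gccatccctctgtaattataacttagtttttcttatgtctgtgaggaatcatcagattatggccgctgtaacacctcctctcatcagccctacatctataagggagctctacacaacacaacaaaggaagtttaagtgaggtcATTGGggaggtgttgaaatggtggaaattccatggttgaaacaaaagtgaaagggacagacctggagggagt
Slc13a3: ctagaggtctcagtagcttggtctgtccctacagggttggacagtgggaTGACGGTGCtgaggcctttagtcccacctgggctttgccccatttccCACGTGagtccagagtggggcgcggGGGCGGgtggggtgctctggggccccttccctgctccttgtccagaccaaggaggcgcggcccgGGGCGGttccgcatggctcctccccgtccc
Both strands were searched for the TATA box TATAAA, the CCAAT box CCAAT, the GC box GGGCGG, the E-box CACGTG and the hypoxia response core ACGTG. The search also covered the AP-1 site TGANTCA, the STAT site TTCNNNGAA and its STAT6 form with 1 more base between TTC and GAA. The last were the interferon-stimulated response element (GAAA, any 2 bases, GAAA), the antioxidant response element core TGACNNNGC and a single form of the NF-kB site. The letters of that form are not given here, and other forms of the site were not searched. Acod1 held 1 match, a CCAAT box in reverse at 107 bases before the start, and 30.4% of the 32851 promoter windows of this length hold that motif. Slc13a3 held an antioxidant response element core at 201 bases before the start (8.46% of windows), an E-box at 154 (4.84%) that overlaps the hypoxia response core on both strands (14.1%), and GC boxes at 129 and 65 (27.7%). The windows also differed in composition, with 43.3% G and C in Acod1 and 67.0% in Slc13a3, against quartiles of 44.7%, 51.6% and 60.5% over all windows. A match is a description of the letters, and binding was not measured. Promoter windows were available in the reference used for 4 of the 6 members, namely Acod1, Slc13a3, Ass1 and Odc1.

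Acod1 (Entrez 16365, chr14:103046977-103056573, plus strand), the itaconate-forming enzyme, had 74, 59 and 52 estimated counts in control replicates 1, 2 and 3, and 5744, 4685 and 5269 in the corresponding TgAPPswe replicates. These counts correspond to 1.5, 1.18 and 1.07 FPKM in control and 103.28, 84.84 and 96.41 FPKM in TgAPPswe. All 3 TgAPPswe libraries lay far above the control libraries, and the mean level was 1.25 ± 0.223 FPKM (SD, n = 3) against 94.8 ± 9.32 FPKM, a ratio of 75.9. The log2 fold change was 6.46 with an SE of 0.142 and a 95% interval of 6.14 to 6.79. Ranked by mean FPKM among the 17469 genes, Acod1 stood at place 10669 in control and at place 874 in TgAPPswe.

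Slc13a3 (Entrez 114644, chr2:165405028-165473230, minus strand) encodes a sodium-dependent carrier of succinate and other dicarboxylates in the plasma membrane, and itaconate is among its reported substrates. It had 1026, 856 and 950 estimated counts in control and 143700, 144321 and 145265 in TgAPPswe libraries. The TgAPPswe libraries differed little from each other, with a coefficient of variation of 1.42% in FPKM against 9.57% in control. Between 0.652% and 0.670% of all counts of a TgAPPswe library came from this gene, compared with 0.00432% to 0.00523% in control, and its rank by FPKM went from 4921 to 19. The log2 fold change was 7.31 (SE 0.0997), the 3rd largest of the 11860 genes that no library counted fewer than 10 times. The antisense gene Gm14437 overlaps Slc13a3, and whether the counting used strand is not given in the sources used here, so reads of the pair cannot be told apart. The ratio of Slc13a3 to Acod1 in FPKM was 11.04, 11.6 and 14.5 in control libraries and 19.97, 24.6 and 22.01 in TgAPPswe libraries, so the carrier exceeded the enzyme in every library and by more in TgAPPswe.

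**Figure D1:**
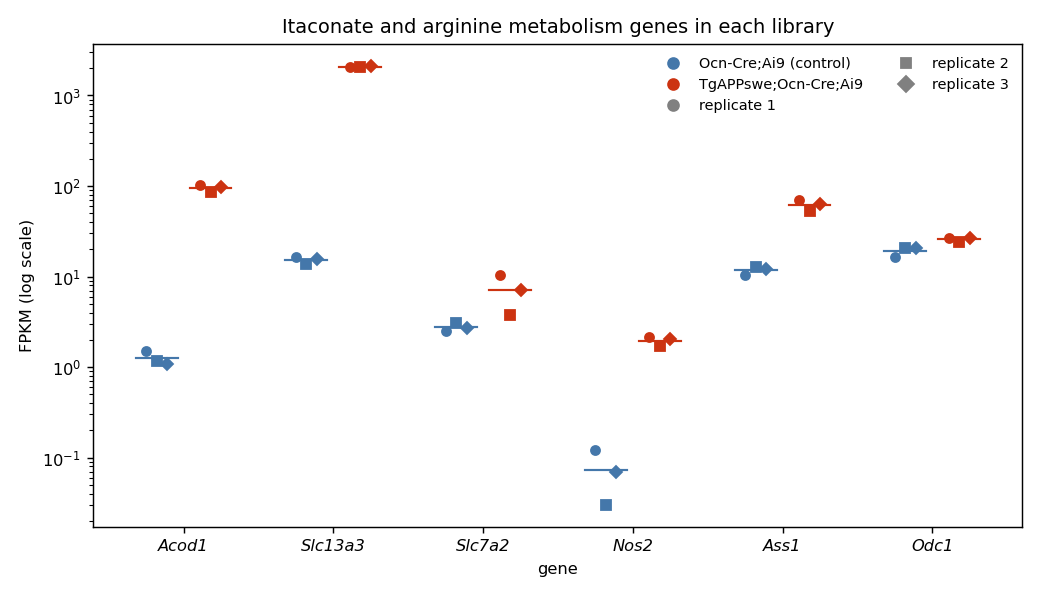
FPKM (log scale) of the 6 genes in each library: blue, Ocn-Cre;Ai9; red, TgAPPswe;Ocn-Cre;Ai9; marker shapes, replicates 1 to 3; lines, group means. Acod1 and Slc13a3 show the widest gaps, Slc7a2 the widest spread among TgAPPswe libraries, and Odc1 the narrowest gap.

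Slc7a2 (Entrez 11988, chr8:40862396-40922308, plus strand), the cationic amino acid carrier CAT2 that brings arginine into macrophages, had 2.53, 3.05 and 2.71 FPKM in control libraries. Its levels in the TgAPPswe libraries were 10.43, 3.78 and 7.16 FPKM, from 1766, 635 and 1192 estimated counts. The lowest TgAPPswe library was just above the highest control library, so the groups did not overlap, but the TgAPPswe libraries spanned a 2.76-fold range. Their SD of log2 CPM exceeded that of 98.1% of the tested genes. The log2 fold change was 1.59 (SE 0.322, 95% interval 0.856 to 2.33), and it was 1.19 without TgAPPswe replicate 1 and 1.91 without TgAPPswe replicate 2. A lincRNA, Gm26584, overlaps Slc7a2 on the other strand, and reads of the pair cannot be told apart.

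Nos2 (Entrez 18126, chr11:78920787-78960254, plus strand), the inducible nitric oxide synthase, was near the floor in control libraries, with 9, 2 and 5 estimated counts (0.12, 0.03 and 0.07 FPKM). The TgAPPswe libraries held 183, 152 and 176 counts (2.12, 1.69 and 2.04 FPKM). Summed over libraries and scaled to their normalized sizes, the ratio of counts was 33.2 with an exact 95% counting interval of 20.3 to 58.5. This kind of interval, also given below for Il12b and Ocstamp, covers counting error only and not the spread between libraries. The fitted log2 fold change was 5.02 (SE 0.321). Nos2 passed the filter on low counts only through the TgAPPswe libraries. The counts of every TgAPPswe library exceeded those of control, but the TgAPPswe level was low in absolute terms, at rank 9694 of 17469 by FPKM. Ass1 (Entrez 11898, chr2:31470207-31520672, plus strand), argininosuccinate synthase, which starts the return of citrulline to arginine, was expressed in both groups. Its levels were 10.47, 12.82 and 12.23 FPKM in control and 70.38, 53.22 and 63.30 FPKM in TgAPPswe libraries, with means of 11.8 ± 1.22 and 62.3 ± 8.62 FPKM (SD, n = 3), a ratio of 5.26. No library of one group reached the other, and the log2 fold change was 2.61 (SE 0.128, 95% interval 2.32 to 2.91).

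Odc1 (Entrez 18263, chr12:17544794-17551505, plus strand), ornithine decarboxylase, the first enzyme of polyamine synthesis, had 16.48, 20.64 and 20.77 FPKM in control and 26.41, 24.30 and 26.77 FPKM in TgAPPswe libraries. The groups did not overlap, but the difference was small, with a log2 fold change of 0.64 (SE 0.0962, 95% interval 0.417 to 0.857), below the threshold of a call. The snoRNA Gm22748 lies inside Odc1.

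Of the 6 genes, 5 were called higher in TgAPPswe (Acod1, Slc13a3, Slc7a2, Nos2 and Ass1), where 8.9% of all tested genes were called higher, 9.2% lower and 18.1% in either direction. Odc1 was not called. Without the fold threshold these 6 passed the adjusted p, as did 64.0% of tested genes. In these 6 genes the TgAPPswe libraries all lay above the control libraries in normalized counts, as was the case for 34.8% of tested genes, with 34.9% below and 69.7% apart in either direction. Since the members were chosen on this contrast, and Nos2 was tested only through its TgAPPswe counts, nothing follows from these counts. Scaled by library size alone, the median log2 fold change over all tested genes moved from -0.0192 to -0.234 and the calls over all genes from 1130 higher and 1169 lower to 846 and 1732, while the members called stayed these 5.

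**Figure D2:**
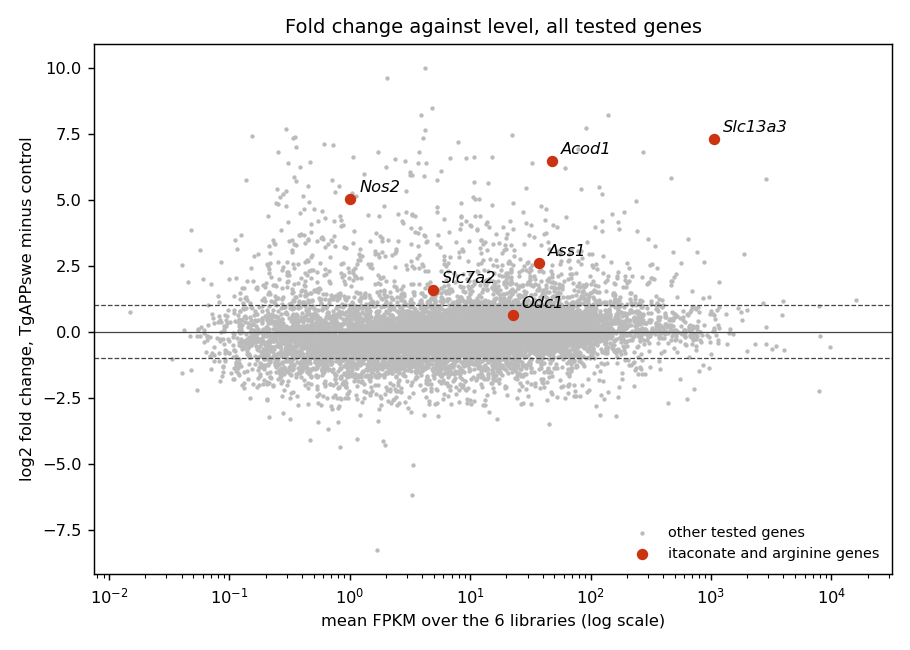
Log2 fold change (TgAPPswe minus control) against mean FPKM over the 6 libraries (log scale) for all 12701 tested genes; red points, the 6 members; dashed lines, the fold threshold of a call. Slc13a3 combines a log2 fold change of 7.31 with a high level, Nos2 sits at a low level, and Odc1 lies between the dashed lines.

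The order of the genes by FPKM differed between the groups. In control it ran Odc1, Slc13a3, Ass1, Slc7a2, Acod1 and Nos2, and of these neighbours only Odc1 and Slc13a3 overlapped between libraries. In TgAPPswe it ran Slc13a3, Acod1, Ass1, Odc1, Slc7a2 and Nos2, and no neighbours in that order overlapped. Within the TgAPPswe group, replicate 1 had the highest normalized count for 5 members and replicate 2 the lowest for all 6. Slc13a3 was highest in replicate 3. In FPKM the order differed for 2 members. Slc13a3 was then lowest in replicate 1, at 2063 FPKM against 2086 and 2122 FPKM in replicates 2 and 3. Odc1 was highest in replicate 3, at 26.77 FPKM against 26.41 FPKM in replicate 1. The summed stromal and osteoblast-lineage markers followed the order opposite to that of Acod1, Slc7a2, Nos2 and Ass1. They were at 582, 851 and 674 FPKM in TgAPPswe replicates 1, 2 and 3, while the myeloid markers summed to 20099, 16352 and 17563 FPKM. Without Spp1 the stromal and osteoblast-lineage markers were at 101, 179.8 and 144.6 FPKM, and without Lyz2 the myeloid markers at 11375, 10973 and 10734 FPKM. The part of cell makeup in the order of the libraries was not tested.

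The other genes of these pathways were followed in lists by function. Of 68 listed genes 65 were in the table and 57 were tested, of which 5 rose and 5 fell, or 17.5% against 18.1% of all tested genes. Their median log2 fold change was 0.18 against -0.0192 over all tested genes. The calls were spread over the groups that follow, and within several of them genes of opposite direction stood side by side.

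Around Acod1, none of 18 enzymes of the TCA cycle and of itaconate breakdown was called in either direction by edgeR or DESeq2, and their median log2 fold change was 0.25. Without the fold threshold 9 passed higher and 6 lower in the edgeR fit. Sdhb, the iron-sulfur subunit of succinate dehydrogenase and the most abundant of the list, was at 106.09, 98.19 and 96.03 FPKM in control and 125.50, 117.17 and 114.42 FPKM in TgAPPswe libraries (log2 fold change 0.47, SE 0.0691, adjusted p = 0.000412). Citrate synthase Cs, which feeds the step before aconitate, differed by 0.69 (SE 0.0570) and Idh1, the cytosolic isocitrate dehydrogenase, by -0.68 (SE 0.0666), both short of the fold threshold. Among other dicarboxylate and citrate carriers, 4 of 7 were tested and 1 rose. This was Slc25a10, the mitochondrial dicarboxylate carrier, with 21.45, 20.08 and 20.40 FPKM in control and 84.46, 67.57 and 73.78 FPKM in TgAPPswe libraries (log2 fold change 2.08, SE 0.0966, edgeR adjusted p = 5.51e-07). The relatives of Slc13a3 were scarce, since Slc13a1, Slc13a4 and Slc13a5 did not pass the filter on low counts and Slc13a2 was at 0.553 FPKM in control and 0.773 FPKM in TgAPPswe.

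Among 6 tested genes of arginine transport, 1 rose. Slc7a1, the cationic carrier CAT1 found in most cells, was at 3.22, 3.78 and 4.14 FPKM in control and 8.02, 7.26 and 8.34 FPKM in TgAPPswe libraries (log2 fold change 1.30, SE 0.101, edgeR adjusted p = 9e-06). On log2(FPKM + 1) its difference was 0.92, under the fold threshold. In control Slc7a1 thus averaged 3.71 FPKM beside 2.76 FPKM of Slc7a2, and in TgAPPswe 7.87 beside 7.12 FPKM. Asl, which completes the return of citrulline to arginine after Ass1, was the only other tested gene of that cycle and went the other way, from 30.7 ± 1.19 to 23.3 ± 1.22 FPKM (SD, n = 3), with a log2 fold change of -0.21. Its edgeR adjusted p was 0.0236, above 0.05 with DESeq2 (0.0524), and 0.0573 to 0.108 without control replicate 3, TgAPPswe replicate 2 or TgAPPswe replicate 3.

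Of the nitric oxide genes besides Nos2, 6 of 9 were tested, 1 rose and 2 fell. Gch1, GTP cyclohydrolase, which makes the tetrahydrobiopterin cofactor of Nos2, was at 3.78, 5.26 and 4.39 FPKM in control and 33.90, 32.16 and 34.05 FPKM in TgAPPswe libraries (log2 fold change 3.11, SE 0.109, edgeR adjusted p = 1.62e-07). The later enzymes of cofactor synthesis and recycling had lower estimates in TgAPPswe: Pts differed by -0.64, Spr by -0.50 and Qdpr by -0.29 on the log2 scale, none past the fold threshold. Ddah1 and Ddah2, which break down the methylated arginines that inhibit nitric oxide synthases, fell by 1.19 and 1.33 on the log2 scale (edgeR adjusted p = 0.000629 and 0.000122). Ddah1 went from 3.07 to 1.11 FPKM and Ddah2 from 7.67 to 2.68 FPKM on average. On log2(FPKM + 1) Ddah1 fell by 0.94, under the fold threshold. Nos1 and Nos3, the other nitric oxide synthases, did not pass the filter on low counts, with at most 6 and 11 counts in a library.

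In polyamine metabolism 13 genes besides Odc1 were tested, of which 2 rose and 1 fell, with a median log2 fold change of 0.31. Amd1, S-adenosylmethionine decarboxylase, which supplies the propylamine groups for spermidine and spermine, was at 20.19, 25.38 and 22.80 FPKM in control and 92.52, 90.54 and 89.43 FPKM in TgAPPswe libraries (log2 fold change 2.21, SE 0.0851, edgeR adjusted p = 2.16e-07). Its counts were fractional in every library, so its values are uncertain. Azin1, the antizyme inhibitor that protects ornithine decarboxylase from degradation, went from 28.7 ± 4.88 to 71.1 ± 4.65 FPKM (SD, n = 3; log2 fold change 1.55, adjusted p = 1.17e-05). Paox, which oxidizes acetylated polyamines, fell by 1.30 on the log2 scale, from 30.7 to 10.6 FPKM (adjusted p = 0.000316). Sms, spermine synthase, stood just short of the threshold at 0.94. In this group the transcript of Odc1 itself differed less than those of Amd1 and Azin1, a comparison of point estimates that was not tested.

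The ornithine and creatine branches held 2 further calls, both lower. Of 7 tested genes that link ornithine and proline only Prodh, proline dehydrogenase, was called, at 3.61, 3.57 and 3.91 FPKM in control and 1.22, 1.28 and 1.17 FPKM in TgAPPswe libraries (log2 fold change -1.39, SE 0.132, edgeR adjusted p = 2.95e-05). Gamt, which methylates guanidinoacetate to creatine, was at 26.82, 23.19 and 22.77 FPKM in control and 8.14, 8.83 and 9.35 FPKM in TgAPPswe libraries (log2 fold change -1.25, adjusted p = 9.11e-06). Gatm, which transfers the amidino group of arginine one step earlier, was not called (-0.16, adjusted p = 0.121).

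**Figure D3:**
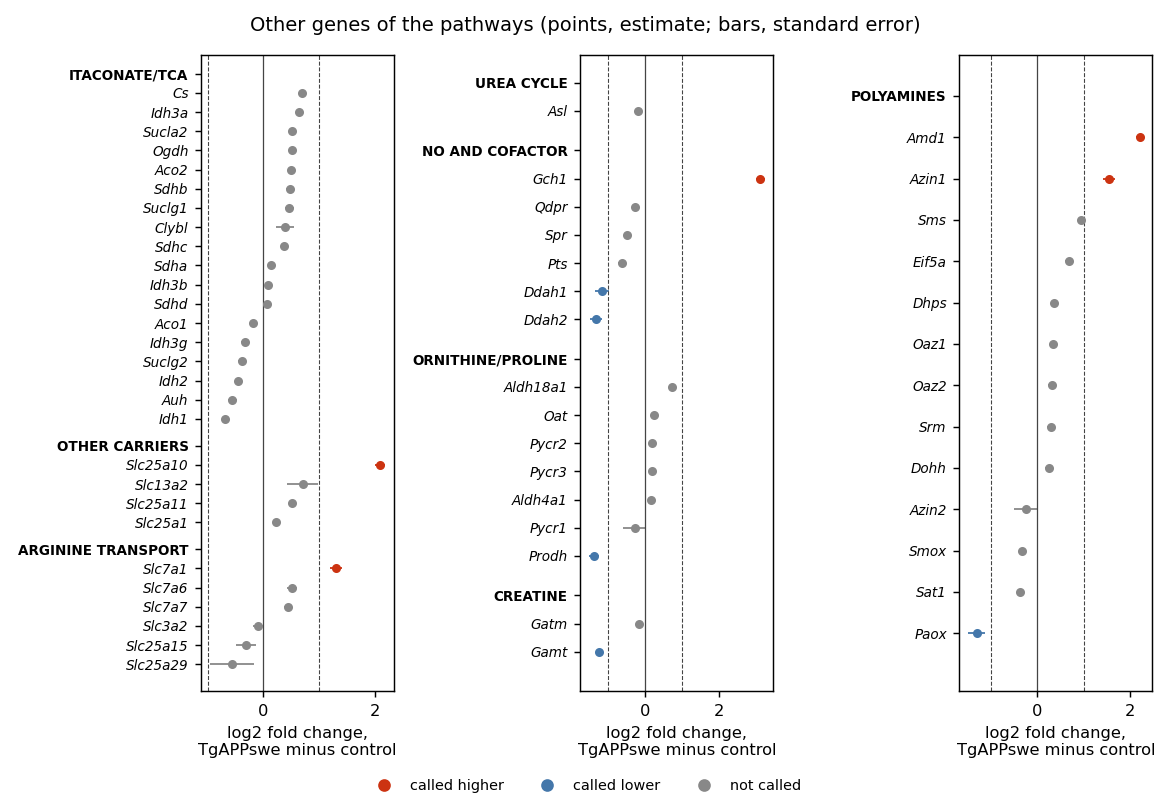
Log2 fold changes (TgAPPswe minus control; bars, SE) of the 57 tested pathway genes other than the members, by group; red, called higher; blue, called lower; grey, not called; dashed lines, fold threshold. Gch1, Amd1, Slc25a10, Azin1 and Slc7a1 lie past the threshold on the right, Prodh, Ddah2, Paox, Gamt and Ddah1 on the left, and the TCA enzymes stay between the lines.

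Among 8 listed targets of NRF2, the regulator that itaconate can release, 2 rose and none fell past the threshold. That is 25% of a short list, against 8.9% of all tested genes called higher and 18.1% called in either direction. Slc7a11, the cystine carrier, was at 0.39, 0.49 and 0.76 FPKM in control and 5.20, 1.44 and 3.45 FPKM in TgAPPswe libraries (log2 fold change 2.87, SE 0.469, edgeR adjusted p = 0.000735). Its TgAPPswe libraries had the order seen for Slc7a2, highest in replicate 1 and lowest in replicate 2. Gsr, glutathione reductase, went from 18.8 ± 2.17 to 55.0 ± 7.59 FPKM (SD, n = 3; log2 fold change 1.77, adjusted p = 5.81e-06). Hmox1, heme oxygenase, was high in both groups, at 344 and 493 FPKM (0.73), while Gclc (-0.70) and the NRF2 gene Nfe2l2 (-0.45) were lower without reaching the fold threshold.

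Of 16 transcription regulators known to act on the members, 1 rose and 2 fell, or 18.75% against 18.1% of all tested genes called. Hif1a, the hypoxia-inducible factor, went from 30.2 to 58.4 FPKM (log2 fold change 1.16, edgeR adjusted p = 7.92e-06). It was below the fold threshold when scaled by library size alone or on log2 FPKM. Irf4, which acts downstream of interleukin-4, fell by 2.46 on the log2 scale, from 1.26 to 0.197 FPKM (adjusted p = 0.000126), and Pparg fell by 1.16, from 22.4 to 8.46 FPKM (adjusted p = 2.63e-05). Stat6, the interleukin-4 signal carrier, was at 73.4 and 60.5 FPKM and not called (-0.06, adjusted p = 0.296). This depended on scaling, since with library size alone it differed by -0.28 (edgeR adjusted p = 0.00139). On log2(FPKM + 1) it also differed by -0.28 (limma adjusted p = 0.000903), both short of the fold threshold. Irf1 differed by -0.48.

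Because Nos2 serves as a marker of classical macrophage activation, other markers of this state and of alternative activation were set beside it. Of 10 classical markers 8 rose and 1 fell, or 90% of the list against 18.1% of all tested genes. The calls were 5 and 1 where each library had to hold 10 counts. Both activation lists were chosen with earlier results of these data known, so nothing follows from their counts. The cytokine genes Il6 and Il12b differed most, with Il6 at 4, 1 and 5 estimated counts in control and 488, 176 and 287 in TgAPPswe libraries (log2 fold change 6.58, SE 0.575, edgeR adjusted p = 1.83e-05). Il12b had 0, 0 and 1 counts in control and 806, 111 and 428 in TgAPPswe libraries, highest in replicate 1 and lowest in replicate 2, and the ratio of its summed counts was 1399 with an exact 95% counting interval of 251 to 55284. The chemokine genes Cxcl9 and Cxcl10 rose by 4.18 and 4.06 on the log2 scale, Ptgs2 by 3.17, Tnf by 2.59 and Socs3 by 1.68, with adjusted p values between 4.55e-07 and 0.000247. Cxcl9 and Cxcl10 did not share the library order of Il12b, since both were lowest in TgAPPswe replicate 1 and highest in replicate 2, at 4.04, 5.82 and 5.46 FPKM and at 11.64, 25.46 and 18.67 FPKM. Il1b had 343, 419 and 397 counts in control and 5001, 1319 and 3053 in TgAPPswe libraries (3.08, SE 0.432, adjusted p = 0.000296). Cd86, a costimulatory ligand, fell by 1.61 in log2 terms (adjusted p = 4.96e-07).

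Of the 10 alternative markers with values, 8 were tested, of which 2 rose and 5 fell, or 87.5% against 18.1% of all tested genes. The calls were 1 and 3 where each library had to hold 10 counts. Mrc1, the mannose receptor, went from 208 ± 18.5 to 34.4 ± 6.83 FPKM (SD, n = 3; log2 fold change -2.38, edgeR adjusted p = 1.53e-06). The lectin genes Mgl2 and Clec10a fell by 4.05 and 2.06 on the log2 scale, the chemokine gene Ccl24 by 3.70 and the scavenger receptor Cd163 by 2.18, with adjusted p values between 6.91e-06 and 0.000722. The fits of Mgl2 and Ccl24 rest on 11 and 5 counts over the TgAPPswe libraries. Mgl2 and Clec10a had fractional counts in 5 of 6 libraries, so how reads were divided between similar sequences is uncertain for both. The 2 that rose were Pdcd1lg2, the ligand PD-L2, from 7 to 127 counts over the 3 libraries of a group (log2 fold change 4.17, edgeR adjusted p = 0.000107), and Il4ra, the interleukin-4 receptor, from 80.0 to 141 FPKM (1.03, adjusted p = 7.12e-05). Il4ra was just past the threshold and fell under it when scaled by library size alone, on log2 FPKM, and without control replicate 2 (0.97) or TgAPPswe replicate 2 (0.93).

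**Figure D4:**
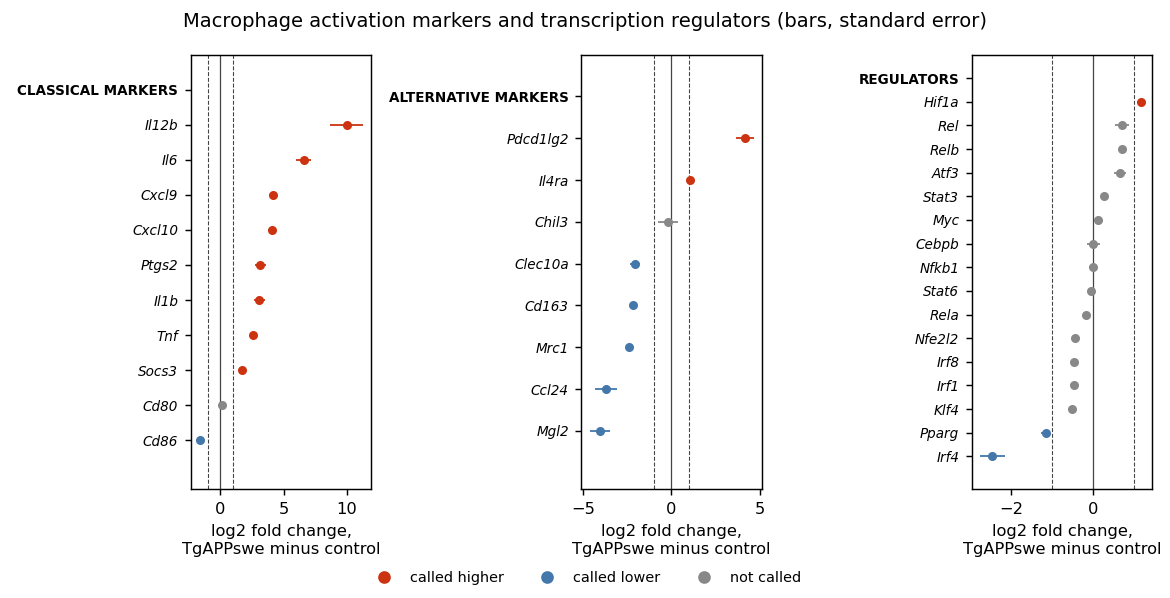
Log2 fold changes (TgAPPswe minus control; bars, SE) of classical and alternative macrophage activation markers and of transcription regulators; colours and dashed lines mark calls and the fold threshold, and the 3 axes differ in range. Classical markers other than Cd80 and Cd86 lie to the right, 5 alternative markers to the left, and most regulators between the lines.

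Genes next to the members on the chromosome were looked up after the values were seen, as the nearest protein-coding gene on each side in RefSeq. Of 11 such genes 10 were tested, 5 rose and none fell past the threshold, where 8.9% of all tested genes were called higher. Ocstamp passed the filter on low counts only through its TgAPPswe libraries. Whether members and neighbours are regulated together was not tested. Slc13a3 had called neighbours on both sides: Ocstamp, an osteoclast fusion gene 4901 bp away, with 0, 0 and 1 counts in control and 30, 31 and 54 in TgAPPswe libraries (ratio of summed counts 119.6, exact 95% counting interval 21.0 to 4764), and Trp53rka, 16915 bp away, at 9.89 and 43.6 FPKM (2.36, adjusted p = 7.07e-08). Acod1 lay 64375 bp from Kctd12 (2.44, adjusted p = 2.15e-07). Nos2 lay 2753 bp from Lgals9, the galectin-9 gene, at 70.7 and 262 FPKM (2.10, adjusted p = 2.69e-06). The last was Hmcn2 beside Ass1, which rose at under 0.1 FPKM and was not called on log2 FPKM.

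The genes whose profiles over the 6 libraries were nearest to that of Slc13a3, by Euclidean distance between log2 CPM centred on each gene's mean, were Raver2 (distance 0.298), Bcl2a1a (0.723) and Zfp811 (1.08) among the 11859 other genes that no library counted fewer than 10 times. Raver2 went from 0.290 to 44.1 FPKM, Bcl2a1a from 1.44 to 154 FPKM and Zfp811 from 0.350 to 30.0 FPKM, all far lower in level than Slc13a3. Nearest to Odc1, the lowest in fold change of the 6 genes, were Abhd5 (0.0991), Abce1 (0.0994) and Mtpn (0.101), with log2 fold changes of 0.59, 0.67 and 0.63.

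**Figure D5:**
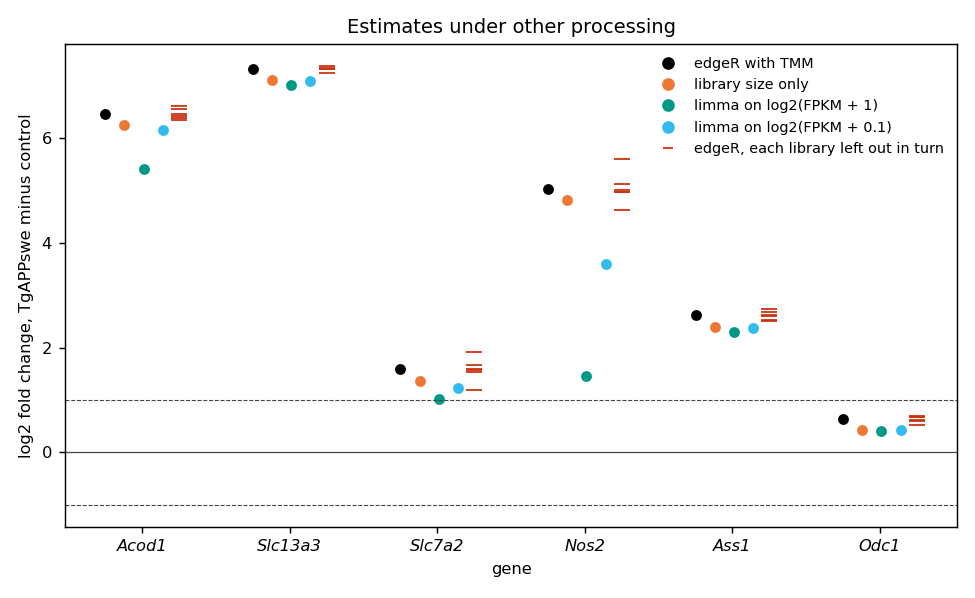
Log2 fold changes of the 6 members (TgAPPswe minus control) from edgeR with TMM (black), with library size only (orange), from limma on log2(FPKM + 1) (green) and log2(FPKM + 0.1) (light blue), and from edgeR with each library left out in turn (red dashes). Nos2 shrinks on the FPKM scales, where a constant is added to its low control level, and Slc13a3 moves least relative to its size.

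The choice of scale mattered most for Nos2. On log2(FPKM + 1), which understates the change of low genes, the difference was 1.46, and on log2(FPKM + 0.1) it was 3.59. Acod1 ranged from 5.41 to 6.61, Slc13a3 from 7.01 to 7.37 and Ass1 from 2.30 to 2.73 over the alternatives run, so that each remained well past the threshold. Slc7a2 ranged from 1.02 to 1.91 and Odc1 from 0.41 to 0.69.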

How the data were processed

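tdTomato+ cells were sorted from BMSC cultures and sequenced on a DNBSEQ platform, and the authors discarded reads of rRNA, adaptors and poor quality before mapping with HISAT2. The submitters' processing notes name HISAT2 2.0.4, Bowtie2 2.2.5, RSEM 1.2.12, DESeq2 1.4.5 and build mm10. The annotation and the strand setting are not given in the sources used here. The authors deposited estimated counts and FPKM (scaled by them to transcript length and library) for 17469 genes. Between 13.3% and 14.4% of genes per library had a fractional estimated count. A further deposited table repeats the FPKM beside the authors' own log ratios and p-values, which were not used. Of the gene symbols 24 had turned into dates, so genes were joined by Entrez identifier.

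The test had been planned for raw counts. Estimated counts were therefore rounded, and compared in edgeR 4.0.16 (R 4.3.3; filterByExpr, TMM, quasi-likelihood test, Benjamini-Hochberg adjustment over 12701 genes) without a replicate block. The procedure was also run on simulated counts in which a small set of genes changed, as often higher as lower. That run does not cover data with as many calls as these, and no result here rests on it. Calls needed an adjusted p no higher than 0.05 and an absolute log2 fold change no lower than 1. Alternatives were DESeq2 1.42.0, RLE size factors, library size only, no filter beyond 1 count, at least 10 counts in every library, a replicate block, limma 3.58.1 on log2(FPKM + 1) or log2(FPKM + 0.1), no fold threshold, and leaving out each library. Tables and plots were made with Python 3.11.15, numpy 2.4.6, pandas 2.3.3, scipy 1.17.1 and matplotlib 3.10.9. Gene positions are GENCODE vM21 on GRCm38, the build of mm10.

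The members and lists were chosen with earlier results of these data known. Genes named are the members, every called gene of the pathway, NRF2, regulator and activation lists, the most abundant gene of a pathway list without a call, App and the 3 nearest profiles. Further pathway genes, regulators, cell markers and chromosomal neighbours were named after their values were seen. Retnla, Otc, Nags and Agmat were not analysed here. Of the 8 genes chosen, 2 are not reported here, nor are a few genes of the lists and of the chromosomal surroundings, which were left out of the counts given for members, lists and neighbours.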

Additional observations from a re-analysis of the deposited data

How the results depend on the processing

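The 5 members called higher remained the same 5 with DESeq2, RLE size factors, library size only, no filter beyond 1 count, limma on log2(FPKM + 1) or log2(FPKM + 0.1) and each library left out in turn. With at least 10 counts required in every library, Nos2 was not tested and 4 were called. The count of pathway genes called higher and lower was 28 and 17 without the fold threshold. Over all genes the calls were 4122 higher and 4007 lower without the fold threshold, and 593 higher and 845 lower on log2(FPKM + 1). That setting adds a constant, which shrinks low genes, but also leaves out the TMM factors and uses limma. Library size alone gave 846 higher, so the part of the constant cannot be told apart. Leaving out each library in turn gave 1103 to 1150 genes called higher, 1125 to 1262 lower, and 5 to 6 pathway genes lower. Low genes named beside the members also came under the fold threshold on log2(FPKM + 1), among them Irf4, Pdcd1lg2, Ocstamp, Slc7a1, Ddah1, Lum and Xcr1. Without control replicate 1 the log2 fold change of Nos2 was 5.61. With the replicate number as a block, 1115 genes were called higher and 1147 lower, with the same 5 members, and the block changed no call of a member. Deviations of same-numbered libraries from their group means correlated at 0.0127, 0.00664 and 0.141, and not every library correlated best with its own number, so the numbers were not taken to pair the libraries. Depth limits Nos2, whose control libraries held 2 to 9 counts.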

Other observations

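The deposited FPKM and estimated counts of Il1b did not match in 1 library. In TgAPPswe replicate 2 the count was 1319 and the FPKM 146.43, which is 3.23 times the 45.3 FPKM that the ratio of FPKM to counts in the other 5 libraries gives for this count. In those 5 libraries the ratio agreed within 0.0624 on the log2 scale. Of 9949 genes with at least 50 counts and 1 FPKM in every library, Il1b was the only gene in which 1 library departed by more than 1 on the log2 scale while the others stayed within 0.1. The difference given above for Il1b rests on the counts, and why the deposited values differ was not tested. In Acod1, Slc13a3, Slc7a2, Ass1 and Odc1, the members above these limits, the values matched within 0.00645 on the log2 scale.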
